A study of Homo sapiens with 4 samples.

Results

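The genes described here encode matrix proteins, their cell-surface receptors, cadherins and the enzymes that modify or degrade the matrix, measured in 2 human gastric cancer (GC) cell lines treated or not with isorhamnetin (ISO), a flavonol. They were chosen by type and name, as protein-coding genes whose symbol begins with the stem of a laminin, collagen, integrin, cadherin, protocadherin, fibulin, SPARC, syndecan, glypican, MMP, ADAM, TIMP, LOX, P4HA or PLOD gene, among others, or is one of a few single symbols such as EPCAM, CD9, AGRN, HSPG2 and SERPINH1 (a rule that reads no measured value but was drawn up with earlier results of these data known). This gave 45 of the 2897 genes with a value. They comprised 6 laminin chains, 8 collagen chains, 2 other matrix glycoproteins, 5 collagen-modifying proteins, 5 proteoglycans, 7 integrin subunits, 3 cadherins, 2 other adhesion receptors, and 7 proteases or protease inhibitors. FN1, THBS1, CD44, CDH1 and TNC were not analysed here.

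RNA was sequenced from the AGS-1 line, labelled as AGS and as gastric adenocarcinoma cells, and from the HGC-27 line, labelled as gastric carcinoma cells. Both were wild type and grown in RPMI-1640 with serum and antibiotics, and each gave 1 untreated control library and 1 library from cells exposed to ISO. The labels give ISO at 50 μM for 24 h, while the study's text names a lower dose for the RNA-seq. Both are established lines without stroma or host tissue, and the labels name no vehicle for the controls. The study's text also speaks of duplicates, whereas the labels and the table have a single sample for each line and treatment. Whether a sample combines several cultures or libraries is not given in the sources used here, and the counting intervals take each as 1 library. With 1 library per condition and line, a difference between ISO and control within a line has no replicate check, and nothing in the labels places the 4 libraries in batches.

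A basement membrane is a sheet of laminin networks, collagens and heparan sulfate proteoglycans on which epithelial cells sit. Integrins are pairs of an alpha and a beta chain that bind laminin, collagen or fibronectin outside the cell and the cytoskeleton inside it, and the pair of ITGA6 and ITGB4 anchors hemidesmosomes to laminin. Fibrillar collagens and SPARC are products typical of mesenchymal cells, while cadherins and EPCAM hold neighbouring cells together. In gastric carcinoma these genes are studied for the shift between epithelial and mesenchymal states and for invasion through the basement membrane.

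The 250 bases before the transcript start were taken from RefSeq for 29 of the 45 genes. Printed here, 5′ to 3′ on the gene's own strand, are those of the genes that differed at least 2-fold between ISO and control in 1 line, since these are the genes on which the ISO comparison turns. ITGB4 and MMP1 also passed that fold. In the deposited coordinates, on GRCh38, SDC4 spans chr20:45325288-45348424, LAMB3 chr1:209614870-209652425, PCDH1 chr5:141853090-141879246, COL7A1 chr3:48564073-48595329 and MMP1 chr11:102789401-102798160 on the minus strand, and ITGB4 chr17:75721328-75757818 on the plus strand. Capitals mark GGGCGG or its complement CCGCCC, the core of the binding motif of SP1. Coordinates of the printed windows are on GRCh38.p14, all on the minus strand.
SDC4, chr20:45348425-45348674: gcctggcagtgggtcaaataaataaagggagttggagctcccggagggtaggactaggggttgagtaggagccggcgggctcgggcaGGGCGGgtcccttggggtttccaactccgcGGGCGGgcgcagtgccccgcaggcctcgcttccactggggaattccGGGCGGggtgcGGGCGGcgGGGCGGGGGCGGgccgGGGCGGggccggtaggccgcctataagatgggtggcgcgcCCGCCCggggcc
LAMB3, chr1:209652426-209652675: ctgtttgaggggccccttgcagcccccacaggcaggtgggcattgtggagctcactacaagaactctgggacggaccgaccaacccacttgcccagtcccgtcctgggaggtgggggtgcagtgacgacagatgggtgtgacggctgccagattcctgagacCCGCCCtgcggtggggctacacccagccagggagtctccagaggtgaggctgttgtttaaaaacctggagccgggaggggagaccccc
PCDH1, chr5:141869628-141869877: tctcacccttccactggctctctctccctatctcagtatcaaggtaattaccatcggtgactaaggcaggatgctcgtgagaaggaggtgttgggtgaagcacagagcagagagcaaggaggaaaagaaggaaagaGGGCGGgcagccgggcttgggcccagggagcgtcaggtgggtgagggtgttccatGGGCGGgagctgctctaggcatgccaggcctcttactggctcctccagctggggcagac
COL7A1, chr3:48595330-48595579: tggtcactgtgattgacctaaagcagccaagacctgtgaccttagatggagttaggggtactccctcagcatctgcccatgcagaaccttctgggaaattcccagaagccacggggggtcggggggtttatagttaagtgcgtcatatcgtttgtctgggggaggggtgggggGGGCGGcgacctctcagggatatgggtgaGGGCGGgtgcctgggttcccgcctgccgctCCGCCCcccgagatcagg
The windows of SDC4, LAMB3 and COL7A1 end where the gene begins in the deposited coordinates, whereas that of PCDH1 lies inside the deposited gene. SDC4 held 8 of these sites, 1 pair of them end to end, COL7A1 held 3, PCDH1 2 and LAMB3 1.

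Motifs were searched on both strands of the 29 windows. GGGCGG was found in 24 (82.8%), against 42.3% of all 27305 RefSeq windows and 73.0% of those of the protein-coding genes in the table. TGANTCA, the AP-1 motif, was in 0 of the 29, against 6.60% of all windows and 3.74% of those of the protein-coding genes in the table. CATTCC, the TEAD motif, was in 3 (ITGA5, ITGB1 and SPARC), against 11.9% and 8.56%. TATAAA, the motif bound by TBP, was in 4, on the gene's strand in COL6A2 and P4HA1 and as the complement TTTATA in COL7A1 and ITGA6, against 11.1% and 5.93%. Each motif was searched alone, so that sites of different motifs may share bases, and a match describes letters in a window and not a bound site.

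The authors deposited FPKM, fragments relative to gene length and library size, and the fragments behind each value were recovered from it. Totals lay between 15235004 and 20199425 fragments per library, and the 45 genes held 2.26% of the AGS-1 control, 1.40% of AGS-1 with ISO, 1.72% of the HGC-27 control and 1.47% of HGC-27 with ISO. All 45 had a mean of at least 1 FPKM, the level used for tests, and 2, COL7A1 among them, had a mean under 10 FPKM. Intervals given with a ratio are exact 95% intervals for counting error only. A count of 0 allows up to 3 fragments, and a fold against such a library is a lower bound computed with 3 fragments in it. For 6 genes, ITGB1, CD9, LAMB1, FBLN1, ADAM15 and ITGA3, the gene length in the table was at least 2 times that of the longest coding transcript, up to 3.85 times for ITGB1, which lowers their FPKM beside that of other genes. ITGB1 may also share fragments with its pseudogene ITGB1P1, listed at 62.5 FPKM in the AGS-1 control and 21.7 FPKM in the HGC-27 control. In bulk libraries, fewer cells holding a transcript and less of it per cell cannot be told apart.

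**Figure D1:**
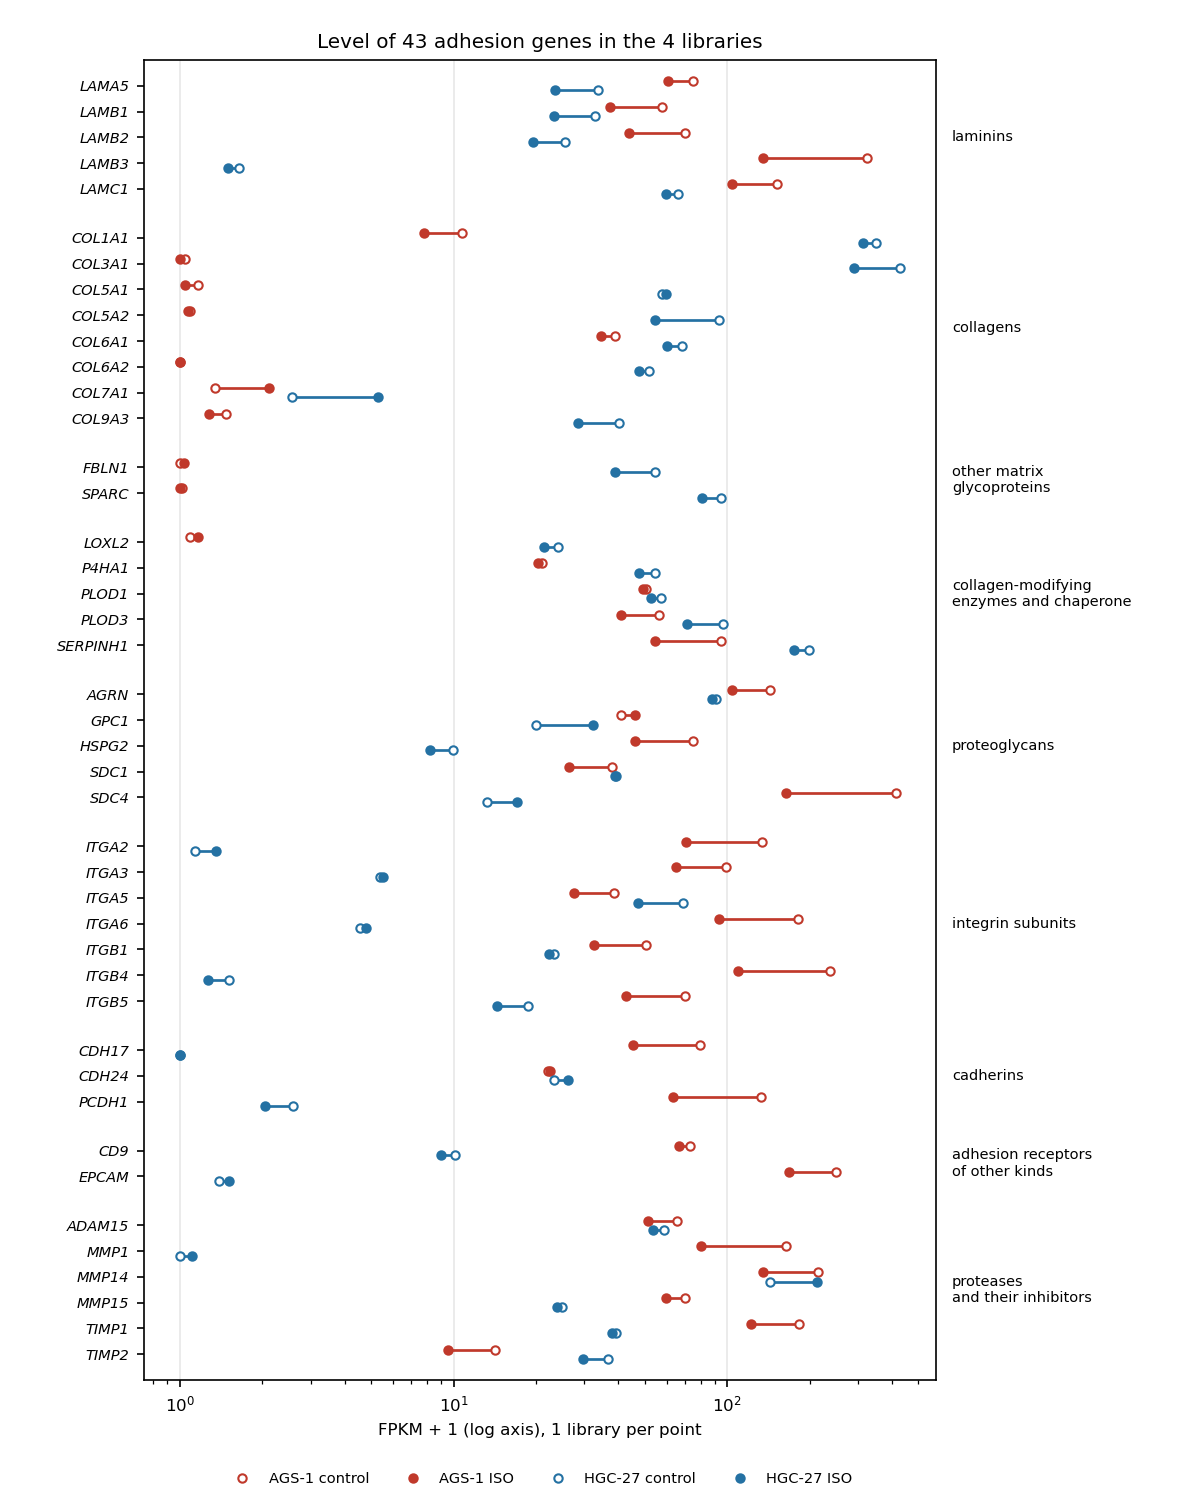
Level of 43 of the 45 genes as FPKM + 1 on a log axis, grouped by role, with AGS-1 in red and HGC-27 in blue; open points are control libraries and filled points ISO libraries, 1 library each, joined by a line. LAMB3 lies at 323 FPKM in the AGS-1 control and COL3A1 at 427 FPKM in the HGC-27 control, each near 0 in the other line, while MMP14 lies between 134 and 213 FPKM in all 4 libraries.

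The first comparison concerned which adhesion genes each GC line expressed. AGS-1 expressed an epithelial set of laminin, integrin and cadherin genes, and HGC-27 a fibrillar collagen set. Of the 45 genes, 22 were higher in AGS-1 and 15 in HGC-27 by limma (adjusted p under 0.05, the ISO library serving as the second library of each line). These are 48.9% and 33.3% of the set, against 32.2% and 24.7% of the 2883 genes tested. A difference of at least 16-fold was found for 19 of the 45 genes, 10 higher in AGS-1 and 9 in HGC-27, or 42.2% against 7.32% of all genes. The median size of the difference was 1.96 on the log2(FPKM + 1) scale, against 0.62 for all genes. Leaving treatment out of the model gave 33 genes and upper-quartile scaling 39, the limits over the alternatives tried.

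Markers of the cell types were read beside this. The epithelial keratins KRT8, KRT18 and KRT19 stood at 508, 559 and 598 FPKM in the AGS-1 control and at 2.19, 0.919 and 0 FPKM in the HGC-27 control. VIM and TWIST1, mesenchymal genes, stood at 0.697 and 0 FPKM in the AGS-1 control and at 306 and 334 FPKM in the HGC-27 control. The 7 epithelial markers with a value summed to 2197 and 1416 FPKM in the AGS-1 libraries and to 5.86 and 4.54 FPKM in those of HGC-27, and the 3 mesenchymal ones to 36.2, 8.15, 711 and 448 FPKM in the same order. VIM and TWIST1 make up little of the mesenchymal sum in AGS-1, so the third marker was not near 0 there. Limma called 6 of the 7 epithelial markers higher in AGS-1, against 32.2% of all genes. It called the 3 mesenchymal markers higher in HGC-27, against 24.7% of all genes. HGC-27, labelled as carcinoma cells, thus had these epithelial markers at or near 0. Of the fibroblast markers, COL1A1 and COL3A1 had values and are members of the set described here. Of 5 endothelial and 5 immune markers looked up, 0 were among the listed genes, so they were not analysed here.

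Laminins were higher in AGS-1 for all 6 chains. LAMB3, a chain of the laminin that anchors epithelia, was at 323 FPKM in the control and 135 FPKM in the ISO library of AGS-1, against 0.639 and 0.492 FPKM in HGC-27 (log2 difference, HGC-27 minus AGS-1, −7.07, SE 0.247, limma adjusted p = 8.61e-11). This chain was thus near 0 in HGC-27. LAMA5, LAMB1, LAMB2 and LAMC1, chains of the laminins found in most basement membranes, were expressed in both lines, with differences between −0.75 for LAMB1 and −1.31 for LAMB2. The laminins made up 19.3% of the summed FPKM of the 45 genes in the AGS-1 control and 6.38% in the HGC-27 control.

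Collagens showed the opposite order. COL3A1, a fibrillar collagen, was at 427 and 289 FPKM in the HGC-27 control and ISO libraries, against 4 fragments and 0 fragments in AGS-1 (8.43, SE 0.201, limma adjusted p = 6.93e-12). COL1A1, the main chain of type I collagen, was at 348 and 313 FPKM in HGC-27 and at 9.71 and 6.83 FPKM in AGS-1, so this chain was present in both lines. COL5A1 and COL5A2, which form the fibril core, were higher in HGC-27 by 5.74 and 6.04 on the log2 scale. The pair of type VI chains differed: COL6A1 was at 38.0 and 33.7 FPKM in AGS-1 and at 67.2 and 59.4 FPKM in HGC-27, while COL6A2 had 0 fragments in both AGS-1 libraries and 50.8 and 46.6 FPKM in HGC-27. For COL6A2 this is a level at least 1377-fold higher in the HGC-27 control and at least 1321-fold higher with ISO. Collagens held 1.29% of the summed FPKM of the set in the AGS-1 control and 44.5% in the HGC-27 control.

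Other matrix glycoproteins and 4 of the 5 collagen-modifying proteins were also higher in HGC-27. SPARC, a collagen-binding matricellular protein, was at 94.2 and 79.6 FPKM in HGC-27, against 1 fragment in AGS-1 without ISO and 0 with it (6.44, SE 0.259, limma adjusted p = 2.96e-10). FBLN1, a fibulin, was at 53.5 and 37.8 FPKM in HGC-27, against 0 and 4 fragments in AGS-1, so that the control level was at least 1980-fold higher in HGC-27. Of the modifying proteins, LOXL2 (a collagen cross-linking oxidase), P4HA1 (a prolyl hydroxylase), PLOD3 (a lysyl hydroxylase) and SERPINH1 (the collagen chaperone of the endoplasmic reticulum) were higher in HGC-27, by 4.34, 1.3, 0.79 and 1.38. PLOD1, another lysyl hydroxylase, did not pass (0.14, limma adjusted p = 0.598).

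Integrin subunits were higher in AGS-1 for 6 of 7 genes. ITGB4, the hemidesmosomal beta chain, was at 237 and 108 FPKM in AGS-1 and at 0.505 and 0.269 FPKM in HGC-27 (−6.87, SE 0.236, limma adjusted p = 7.26e-11). ITGA6, its only alpha partner, was at 181 and 92.2 FPKM in AGS-1 and at 3.55 and 3.79 FPKM in HGC-27 (−4.80). ITGA2, a collagen-binding chain, was at 133 and 70.0 FPKM in AGS-1, against 0.132 and 0.349 FPKM in HGC-27 (−6.30). ITGA5, the fibronectin-binding chain, was the exception, at 37.5 and 26.7 FPKM in AGS-1 and 68.1 and 46.1 FPKM in HGC-27 (0.81, SE 0.2, limma adjusted p = 0.00402). The beta chain ITGB1, which pairs with ITGA2, ITGA3, ITGA5 and ITGA6, was at 49.3 and 31.5 FPKM in AGS-1 and 22.3 and 21.3 FPKM in HGC-27 (−0.83).

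Cadherins and other receptors were mostly those of AGS-1. CDH17, an intestinal cadherin, was at 78.7 and 44.3 FPKM in AGS-1 and had 0 fragments in both HGC-27 libraries, so that it was at least 2056-fold higher in the AGS-1 control. PCDH1, a protocadherin of epithelia, was at 132 and 62.1 FPKM in AGS-1 and 1.59 and 1.05 FPKM in HGC-27 (−5.32). CDH24 lay between 21.2 and 25.1 FPKM in all 4 libraries and did not pass (0.14, limma adjusted p = 0.539). EPCAM, the epithelial adhesion molecule, was at 248 and 167 FPKM in AGS-1 against 0.387 and 0.506 FPKM in HGC-27 (−7.14, SE 0.215, limma adjusted p = 2.83e-11). CD9, a tetraspanin that associates with integrins, was at 71.9 and 65.5 FPKM in AGS-1 and 9.12 and 7.99 FPKM in HGC-27 (−2.87).

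Proteases and proteoglycans were mixed. MMP1, the interstitial collagenase, was at 163 and 78.9 FPKM in AGS-1, against 0 and 5 fragments in HGC-27 (−6.76, SE 0.286, limma adjusted p = 4.56e-10). TIMP1, an inhibitor of such proteases, was higher in AGS-1 (−1.96) and TIMP2 higher in HGC-27 (1.51). SDC4, a transmembrane heparan sulfate proteoglycan, was at 414 and 163 FPKM in AGS-1 and 12.2 and 16 FPKM in HGC-27 (−4.12). The 8 genes that did not pass included COL7A1, SDC1, CDH24, PLOD1, MMP14, ADAM15 and AGRN. A p above the threshold does not show that they were alike in both lines.

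**Figure D2:**
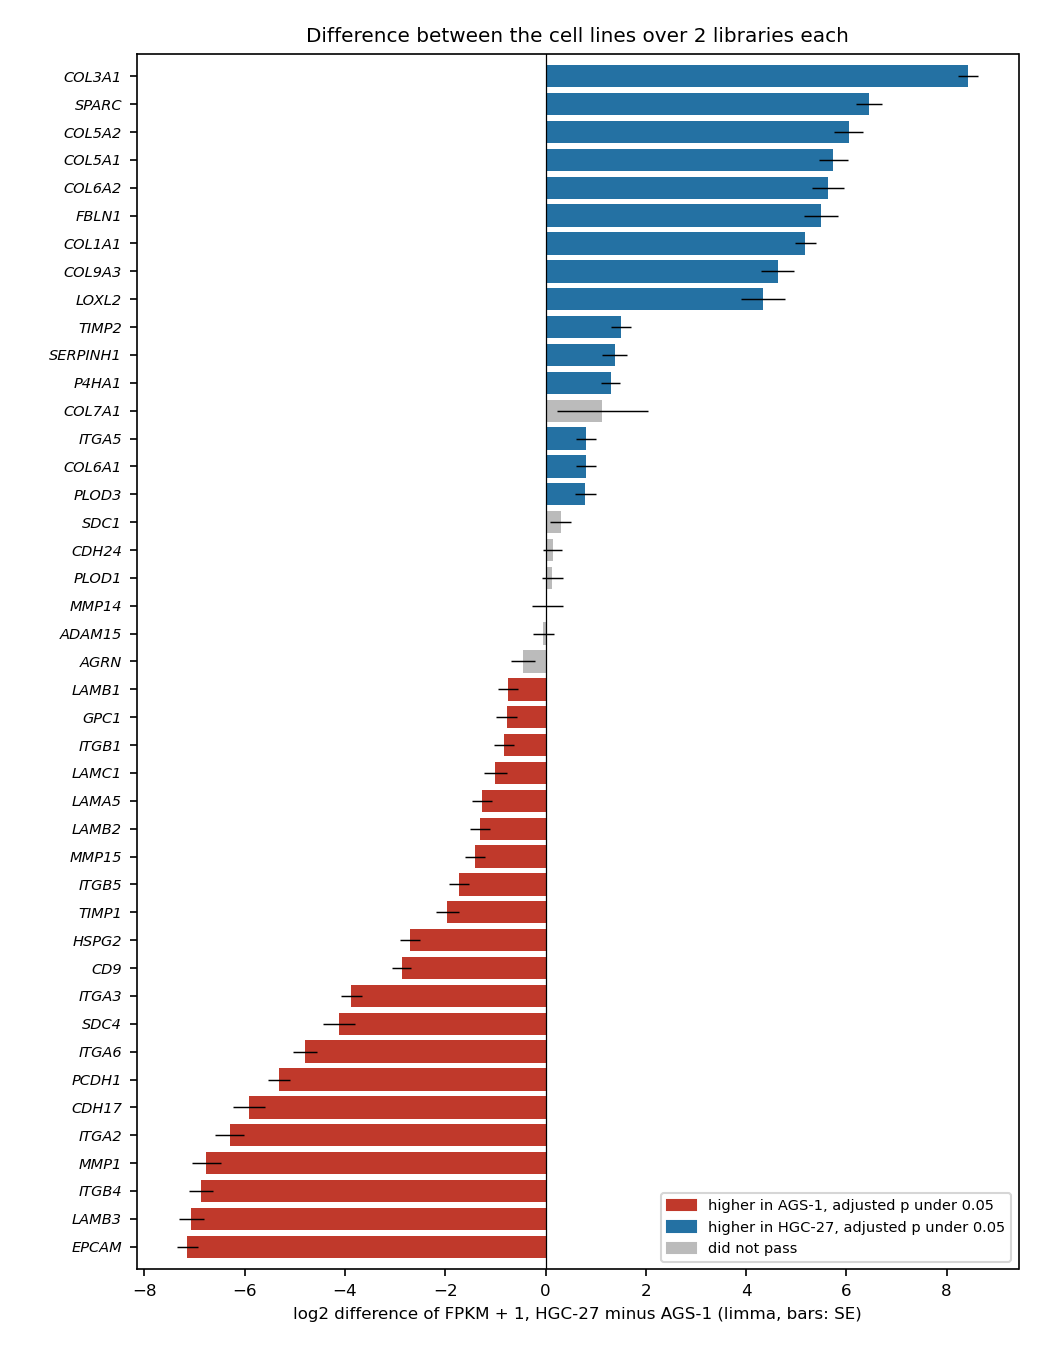
Difference between the cell lines for 43 of the 45 genes, HGC-27 minus AGS-1 on the log2(FPKM + 1) scale, as fitted by limma over 2 libraries per line, with bars of 1 SE. Red bars are genes higher in AGS-1 (EPCAM at −7.14), blue bars genes higher in HGC-27 (COL3A1 at 8.43), and grey bars did not pass (MMP14 at 0.04).

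The second comparison asked how the adhesion genes differed between ISO and control within each line. In AGS-1 their median log2 ratio was −0.48, against −0.29 for all 2883 genes, and 39 of 45 lay below 0 (86.7%, against 78.8% of all genes). Some of these signs rest on few AGS-1 fragments, as for COL3A1 (4 and 0), SPARC (1 and 0) and COL5A2 (10 and 8), and show no fall. A 2-fold fall was found for 6 of the 45 (13.3%), against 6.66% of all genes, and a 2-fold rise for 0 against 0.832%. The 6 included SDC4, LAMB3, ITGB4, PCDH1 and MMP1. In HGC-27 the median was −0.14, against −0.11 for all genes, and 32 of 45 lay below 0 (71.1% against 64.2%). Among the 32, LAMB3, whose value is the median, rests on 60 and 39 fragments and ITGB4 on 69 and 31. By counting error alone, the interval of the ratio lay below 1 for 33 genes in AGS-1 and above 1 for 2, and in HGC-27 for 28 and 8. Such intervals were not formed for all genes, so these counts have no background share and do not set the adhesion genes apart. In HGC-27, 0 of the 45 fell 2-fold, against 0.937% of all genes, and COL7A1 rose, 1 gene of 45 (2.22%) against 0.555%. COL7A1 is among the 54 listed genes with a mean under 10 FPKM. Of these, 20.4% passed 2-fold in either line, against 8.27% of the other listed genes, and how genes came to be listed is not given.

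The AGS-1 values depended on the scaling. Median-of-ratios scaling moved the median of all genes in AGS-1 from −0.29 to −0.03, and upper-quartile scaling moved it to 0.10. All genes that fell and rose 2-fold in AGS-1 then numbered 72 and 50, and 42 and 60, in place of 192 and 24. The median of the 45 genes became −0.20 and −0.10, below that of all genes under both. The −0.10 is the value of COL5A1, which rests on 27 and 8 fragments in AGS-1. Medians of the set include such genes near 0 in a line, whose ratios are drawn toward 0 by the added 1 FPKM. Past 2-fold were 2 genes under median-of-ratios scaling, SDC4 among them. Under upper-quartile scaling it was 1, and SDC4, LAMB3, ITGB4, PCDH1 and MMP1 did not reach it. Relative to the all-gene median, 29 of the 45 genes lay below it in AGS-1, and 26 did in HGC-27. The listed genes together held 78.5% of all AGS-1 control fragments and 64.4% of those with ISO, and mitochondrially encoded genes 9.43% and 14.3%. The part of these shifts in the ratios was not tested.

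**Figure D3:**
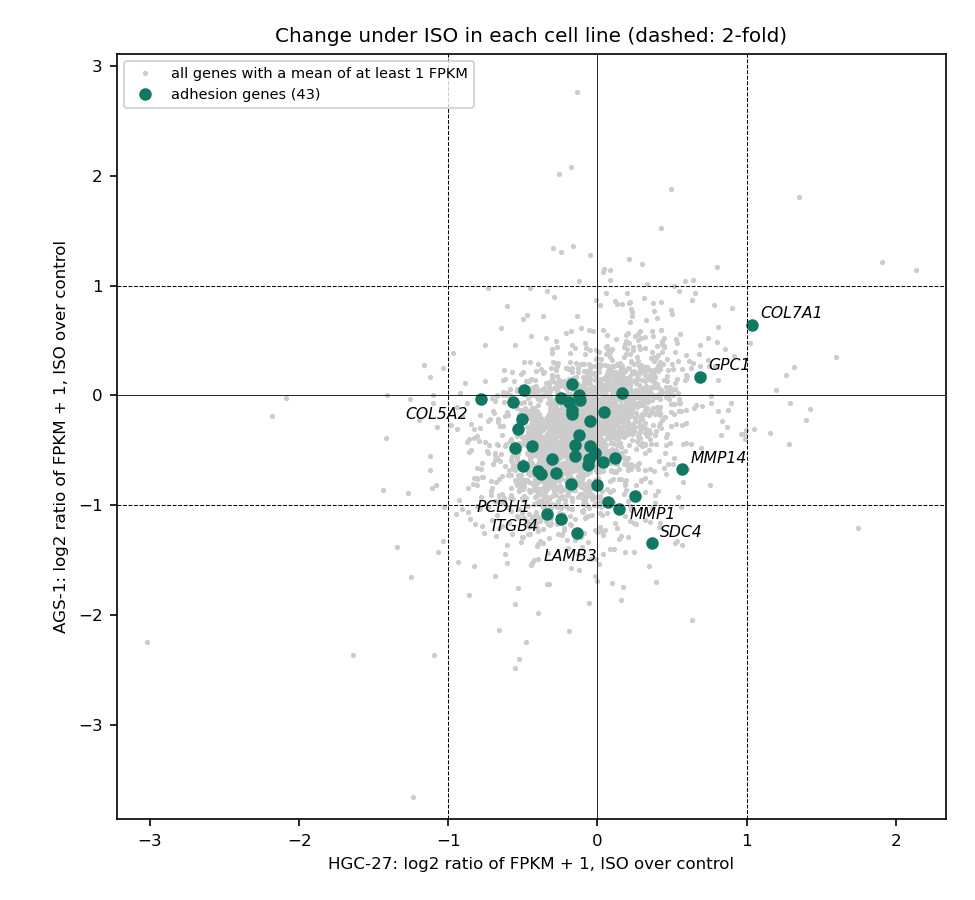
Log2 ratio of FPKM + 1, ISO over control, in HGC-27 (horizontal) and AGS-1 (vertical) for all 2883 genes tested (grey) and 43 of the 45 adhesion genes (green); dashed lines mark 2-fold. SDC4 (−1.34) and LAMB3 (−1.26) lie lowest of the green points in AGS-1, and COL7A1 (1.04) is the green point past 2-fold in HGC-27.

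Laminins were lower with ISO for all 6 chains in both lines. LAMB3 fell in AGS-1 from 323 to 135 FPKM (ratio 0.417, interval 0.407 to 0.427), and in HGC-27 it went from 60 to 39 fragments (ratio 0.769, interval 0.5 to 1.17). LAMC1, the gamma chain shared by most laminins, went from 151 to 103 FPKM in AGS-1, while in HGC-27 it went from 65.2 to 58.6 FPKM. LAMB1 stood at 36.2 FPKM with ISO against 56.9 FPKM without it in AGS-1, and at 22.3 against 31.9 FPKM in HGC-27. LAMB2 stood at 42.7 against 69.3 FPKM in AGS-1 and at 18.5 against 24.6 FPKM in HGC-27. For both of these beta chains the counting interval lay below 1 in each line. The median log2 ratio of the 6 chains was −0.60 (AGS-1) and −0.27 (HGC-27). In HGC-27 all 6 stayed below 0 under both other scalings, but LAMC1 lay at −0.0053 under upper-quartile scaling and LAMB3 rests on few fragments there. In AGS-1 all 6 stayed below 0 under median-of-ratios scaling and 4 under upper-quartile scaling.

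Integrin subunits were lower with ISO for all 7 genes in AGS-1, under each of the 3 scalings. ITGB4 fell from 237 to 108 FPKM there (ratio 0.457, interval 0.447 to 0.467), and went from 69 to 31 fragments in HGC-27 (ratio 0.532, interval 0.336 to 0.823). ITGA6 went from 181 to 92.2 FPKM in AGS-1, just short of 2-fold (ratio 0.509, interval 0.496 to 0.521), and from 3.55 to 3.79 FPKM in HGC-27. Both chains of the hemidesmosomal pair were thus lower in the AGS-1 ISO library. ITGB1 went from 49.3 to 31.5 FPKM and its alpha partners from a sum of 449 to 253 FPKM in AGS-1. ITGA5 was lower by about the same amount in both lines, with log2 ratios of −0.48 and −0.55, but not under the other scalings, which gave −0.20 and −0.49, and −0.06 and −0.41. The median log2 ratio of the 7 subunits was −0.71 in AGS-1 but −0.06 in HGC-27, where 4 of 7 lay below 0 and the median turned to 0.08 under upper-quartile scaling.

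Collagens gave little to compare in AGS-1, where 6 of the 8 had under 1 FPKM in the control, and their median log2 ratio there was −0.10. Relative to the median of all genes it was 0.19, but −0.02 with 0.1 FPKM added, −0.00081 under median-of-ratios scaling and −0.12 under upper-quartile scaling. In HGC-27, where they were abundant, COL3A1 went from 427 to 289 FPKM (ratio 0.676, interval 0.667 to 0.685) and COL5A2 from 92.3 to 53.3 FPKM (ratio 0.577, interval 0.561 to 0.594). COL1A1 went from 348 to 313 FPKM and COL5A1 from 56.8 to 58.6 FPKM. The fibrillar chains were therefore not lowered by a common factor in that library pair. COL7A1, the anchoring fibril collagen that fastens the basement membrane to the tissue beneath and COL5A1 were the collagens with a higher value in HGC-27 with ISO. COL7A1 rose in HGC-27 from 1.57 to 4.29 FPKM, or 354 to 815 fragments (ratio 2.72, interval 2.40 to 3.09). In AGS-1 it went from 0.348 to 1.11 FPKM, or 59 to 197 fragments (ratio 3.19, interval 2.37 to 4.34), with a log2 ratio of 0.65 after 1 FPKM was added. With 5 FPKM added, COL7A1 did not reach 2-fold in HGC-27 (log2 ratio 0.50), and with 0.1 FPKM added it also passed 2-fold in AGS-1 (1.43).

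Other matrix and collagen-modifying proteins stayed within 2-fold. SPARC went from 94.2 to 79.6 FPKM and FBLN1 from 53.5 to 37.8 FPKM in HGC-27. SERPINH1, the collagen chaperone, went from 93.9 to 53.4 FPKM in AGS-1 (ratio 0.568, interval 0.549 to 0.588) and from 198 to 175 FPKM in HGC-27. PLOD3, a lysyl hydroxylase, was lower by nearly the same factor in both lines, with ratios of 0.722 and 0.735, but the other scalings set them apart (log2 ratios of −0.19 and −0.38, and −0.04 and −0.29). All 5 modifying proteins were lower with ISO in HGC-27 (4 under upper-quartile scaling), with a median log2 ratio of −0.18. In AGS-1 the median was −0.06, and it turned to 0.13 and 0.14 under the other scalings.

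Of the 5 proteoglycans, 3 were lower with ISO in both lines as deposited, GPC1 was higher in both and SDC4 went opposite ways. Among the 3, SDC1 had a ratio of 0.991 in HGC-27 (interval 0.938 to 1.05), which shows no fall. In HGC-27, SDC1 and AGRN lay above 0 under both other scalings, and HSPG2 stayed below 0. SDC4 fell in AGS-1 from 414 to 163 FPKM (ratio 0.393, interval 0.382 to 0.404) and stood higher with ISO in HGC-27, at 16 against 12.2 FPKM (ratio 1.31, interval 1.18 to 1.46). AGRN, a basement membrane proteoglycan, went from 142 to 103 FPKM in AGS-1, while in HGC-27 it went from 90.0 to 86.8 FPKM. HSPG2, the basement membrane proteoglycan perlecan, went from 73.7 to 44.9 FPKM in AGS-1 (ratio 0.609, interval 0.595 to 0.622), with a ratio of 0.804 in HGC-27. GPC1, a glypican linked to the membrane by a lipid anchor, was higher with ISO in both lines, at 45.2 against 40.1 FPKM in AGS-1 and at 31.3 against 19.0 FPKM in HGC-27 (ratio 1.65, interval 1.56 to 1.73). It was named after its values were seen. COL7A1, GPC1 and CDH24 were the 3 genes of the 45 higher in both lines as deposited (6.67%, against 13.01% of all genes), while 29 were lower in both (64.4% against 56.2%). The 29 include genes with few fragments in AGS-1, such as COL3A1 and SPARC. Median-of-ratios scaling gave 4 higher (8.89% against 27.9% of all genes) and 21 lower (46.7% against 37.9%). Upper-quartile scaling gave 6 higher (13.3% against 40.1%) and 16 lower (35.6% against 24.3%). The median log2 ratio of the 5 proteoglycans was −0.52 in AGS-1, whereas the HGC-27 value of −0.01 turned positive under both other scalings.

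Cadherins and the other receptors were lower with ISO in AGS-1 except CDH24. PCDH1 fell from 132 to 62.1 FPKM there (ratio 0.470, interval 0.455 to 0.485) and went from 1.59 to 1.05 FPKM in HGC-27 (ratio 0.660, interval 0.515 to 0.841). CDH17 went from 78.7 to 44.3 FPKM in AGS-1 (ratio 0.563, interval 0.537 to 0.590), and had no fragments in HGC-27 from which to form a ratio. EPCAM went from 248 to 167 FPKM in AGS-1, while its few fragments in HGC-27 numbered 19 and 21. CD9 was lower by a small amount in both, with ratios of 0.911 and 0.876, although its AGS-1 log2 ratio was above 0 under both other scalings.

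Proteases and their inhibitors were lower with ISO in AGS-1 as deposited. MMP1 fell in AGS-1 from 163 to 78.9 FPKM (ratio 0.485, interval 0.466 to 0.506) and did not reach 2-fold there with 5 FPKM added. MMP14, a membrane-bound matrix protease, was high in all libraries and went opposite ways, from 213 to 134 FPKM in AGS-1, while in HGC-27 it went from 142 to 211 FPKM. TIMP1 went from 182 to 122 FPKM in AGS-1, while in HGC-27 it went from 38.2 to 36.8 FPKM. All 7 genes of this role lay below 0 in AGS-1 as deposited, with a median log2 ratio of −0.58. Above 0 there were 1 of the 7 under median-of-ratios scaling and 2 under upper-quartile scaling. In HGC-27 the median was −0.05 and turned positive under both other scalings.

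The change common to both lines was tested with limma, in a model of line plus treatment with 1 residual degree of freedom. No gene of the 45 passed in either direction (0 of 45), against 0.832% of all genes lower and 0.104% higher, 27 genes in all, and 0 genes in all under either of the other scalings. The smallest adjusted p was 0.132, for PCDH1, with an estimated log2 difference of −0.71 (SE 0.228) and a lower value with ISO in both lines. At an unadjusted p under 0.05 there were 9 of the 45, all lower with ISO, or 20.0% of the set and 20.0% of all genes. They were PCDH1, ITGB4, ITGB5, ITGA5, LAMB1, LAMB2, LAMB3, HSPG2 and TIMP2, of which ITGB5, ITGA5, LAMB1, LAMB2, HSPG2 and TIMP2 were named after their values were seen. Under median-of-ratios scaling 6 of the 45 had such a p (13.3% against 17.7% of all genes), PCDH1, ITGB4, ITGB5, LAMB1 and LAMB2 with GPC1, and under upper-quartile scaling 2 (4.44% against 17.5%), COL7A1 and GPC1. With 0.1 FPKM added in place of 1, ITGB4 passed (limma adjusted p = 0.0443). Whether ISO acted differently in the 2 lines could not be tested, as that term leaves no residual degree of freedom.

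Other genes of the same machinery were read from fixed lists. Of 35 integrin adhesome genes 10 had values, with median log2 ratios of −0.48 (AGS-1) and −0.02 (HGC-27). VCL, the focal adhesion protein vinculin, fell 2-fold in AGS-1 (48.6 to 22.0 FPKM). The 5 cadherin partners, among them the catenins CTNNA1 and CTNNB1, had medians of −0.73 and −0.27 and 0 genes past 2-fold. For 6 desmosome and hemidesmosome genes the medians were −0.74 and −0.18, and the plakins PPL (59.8 to 24.8 FPKM) and PLEC (211 to 97.8 FPKM) fell in AGS-1. PLEC encodes plectin, which links the ITGA6 and ITGB4 pair to keratin filaments. Of 8 tested matricellular or TGF-beta linked genes, TGFB1 fell in AGS-1 (122 to 51.9 FPKM) and LTBP1, which binds latent TGF-beta, fell in HGC-27 (50.5 to 21.5 FPKM). The 2-fold falls in AGS-1 numbered 2, 0, 2 and 1 in the 4 lists, against 6.66% of all genes, and LTBP1 was the 1 such fall in HGC-27, against 0.937%. Under either of the other scalings VCL, PPL, PLEC and TGFB1 did not reach 2-fold in AGS-1, whereas LTBP1 passed in HGC-27 under both. The limma test of the common change called 0 genes of these 4 lists. Between the lines, limma called 4, 5, 6 and 5 genes of them higher in AGS-1, in the order given, and 0, 0, 0 and 2 higher in HGC-27, against 32.2% and 24.7% of all genes tested.

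**Figure D4:**
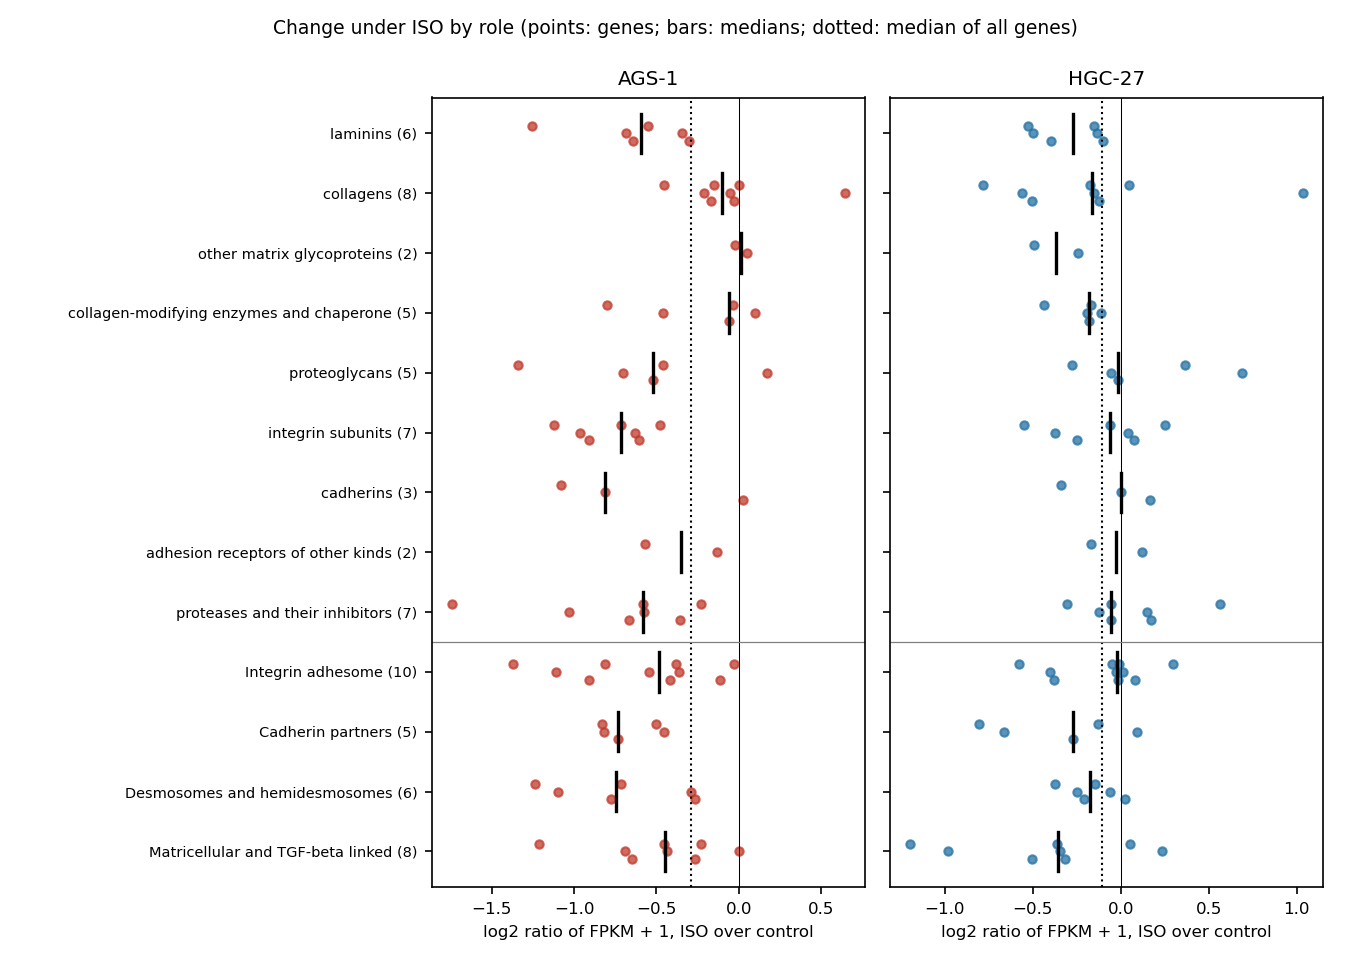
Log2 ratio of FPKM + 1, ISO over control, for each gene (points) by role of the 45 genes above the grey line and by list of related machinery below it, AGS-1 on the left and HGC-27 on the right; bars are medians and the dotted line is the median of all genes (−0.29 and −0.11). The integrins (median −0.71) and laminins (−0.60) lie left of the dotted line in AGS-1, and in HGC-27 the laminin median is −0.27.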

How the data were processed

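RNA of 4 libraries, 1 per cell line and treatment, was measured. The authors deposited 1 table of FPKM for 2897 genes with gene lengths and coordinates. Per the labels, reads came from CASAVA 1.8 and were aligned with HISAT2 to GRCh38 (hg38). The counting tool, the annotation and the choice of the listed genes are not given in the sources used here. FPKM times gene length gave whole fragments (within 0.05, up to 5000 fragments) for 100% of values, so depth and exact binomial intervals (95%, floor of 3 fragments) came from these.

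Log2 ratios used FPKM + 1, and a 2-fold change was the threshold within a line, with no p-value. Tests were fitted by limma (3.58.1, under R 4.3.3) with a mean-variance trend in eBayes to the log2 values of the 2883 genes averaging 1 FPKM or more, with Benjamini-Hochberg adjustment over all of them and a threshold of 0.05. Nothing shows that the libraries of a line are separate cultures beyond their treatment. The 1 residual of the model is the difference between the lines in their ISO change. Limma moderated it with a prior of 11.4 degrees of freedom drawn from all genes. The p-values, for ISO and for line, thus do not measure the spread between cultures. FPKM scaling fixes a total, so a shift in abundant genes moves all ratios. Median-of-ratios and upper-quartile scaling, other pseudocounts (0.1 and 5 FPKM), filters (none, or a mean of 10 FPKM), limma without a trend, a single factor and protein-coding genes only were the alternatives. The fit was also run on simulated data in which ISO acted alike in both lines. That run does not show how the fit behaves where the lines differ in their ISO change.

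The 45 genes and the lists were chosen with earlier results of these data known. Named were genes past 2-fold in either line, those called by the shared test, the 2 of highest mean FPKM in each role, the 5 most higher in each line, and their complex partners. Genes were matched to GENCODE 29, in which all 45 overlapped, and promoters came from RefSeq on GRCh38.p14. E-boxes and protein sequences were not used here. Values of 2 of the 45 genes and of 1 list gene are not reported here singly, and counts and medians include them. All other steps ran in Python 3.11.15 (scipy 1.17.1, numpy 2.4.6, matplotlib 3.10.9, pandas 2.3.3).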

Additional observations from a re-analysis of the deposited data

Results flagged for a closer look

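For 5 genes the ISO library was lower than its control in AGS-1 and higher in HGC-27, each with a 95% counting interval that left out 1. How many of all genes did the same was not counted, so whether this is unusual is not known. With 1 library per condition in each line, the difference between the lines was not tested. The log2 ratio of MMP14 was −0.67 (AGS-1) and 0.57 (HGC-27). SDC4 had −1.34 and 0.37. ITGA2 had −0.91 and 0.25, MMP1 −1.03 and 0.15, and COL5A1 −0.15 and 0.044. For ITGA2 and MMP1 the HGC-27 values rest on 21 and 47, and on 0 and 5 fragments, and for COL5A1 the AGS-1 values rest on 27 and 8. All 5 kept both signs under the other pseudocounts and scalings tried.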

How the results depend on the processing

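The median log2 ratio of the 45 genes in AGS-1 was −0.56 with 0.1 FPKM added, −0.20 under median-of-ratios and −0.10 under upper-quartile scaling, in place of −0.48. The number of genes past 2-fold in AGS-1 was 2 under median-of-ratios and 1 under upper-quartile scaling, in place of 6, and 7 with 0.1 FPKM added (COL7A1 upward), and in HGC-27 it was 2 with 0.1 FPKM added (COL7A1 and MMP1), 0 with 5 FPKM added and 0 with a mean of at least 10 FPKM, a filter that removes COL7A1, in place of 1. The shared ISO test called 1 gene, ITGB4, with 0.1 FPKM added, in place of 0. Over all genes it called 27, and 107 with 0.1 FPKM added, 12 with 5 FPKM added, 6 with no filter and 6 without a trend, 104 with a mean of at least 10 FPKM, 125 with protein-coding genes only, and 0 under both scalings and with treatment alone in the model. Apart from what these settings do by construction, the cause was not tested. Between the lines, the genes higher in AGS-1 and in HGC-27 numbered 928 and 711, and 789 and 1064 under upper-quartile scaling. Of 536 ratios of the 45 genes under the alternatives, 452 moved little, 71 moved on the same side of 2-fold, 11 no longer reached it and 2 newly reached it. The filters only drop genes and cannot change a ratio, so the ratios under them are among the 452 by construction. The 452 are thus no measure of stability. Of the 536, 26 changed sign, all 26 under a scaling and all within 2-fold. No fit without 1 library was possible, since 3 libraries leave no residual degree of freedom in the model. No paired analysis was possible because each group holds 1 library, beyond the line term of the shared test, which already set each ISO library against the control of its line. Counting error limits genes with few fragments, and variation between cultures was not measured.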
